A study of Mus musculus with 20 samples.

Results

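The 101 probe sets described here were lower in imiquimod-injured mouse epidermis on day 4 than in the unaffected area of that experiment. In injured skin of the recovery experiment on day 8 they were at most slightly lower than in the unaffected recovery area. They were chosen from 35080 probe sets with distinct values by their levels, on the log2(intensity + 16) scale used for all log2 values below and as means of the 2 arrays of each group. The injured imiquimod area had to lie at least 1 below the unaffected area. The injured recovery area had to lie no more than 0.3 below the unaffected recovery area, and wax-stripped skin less than 0.3 above it. All 3 conditions had to hold in both genotypes. These 3 differences therefore describe the choice and carry no test.

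Dorsal skin of C57B6 mice was measured in 5 conditions with 2 arrays for each genotype, which made 10 groups and 20 arrays. The genotypes were Grhl3 cKO and Grhl3 WT, and the titles of both carry the Krt14cre label, a Cre recombinase driven by a keratin promoter of the basal epidermis. The conditions were the injured area of imiquimod-treated skin on day 4 (female mice), the injured area of recovery skin on day 8 (labelled male), wax-stripped skin on day 4 (male), unaffected recovery skin (male) and unaffected skin of the imiquimod experiment (female). The labels give no ages, no days for the unaffected areas and no number of mice per array, and they call the replicates biological. The epidermis was taken off with dispase, and such sheets can also hold hair follicle, pigment, nerve and immune cells. In such bulk tissue fewer cells of a type and less RNA per cell cannot be told apart.

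Imiquimod is an agonist of a Toll-like receptor and its cream is used to raise a psoriasis-like inflammation in mouse skin, with thickened epidermis, immune infiltrate and altered keratinocyte differentiation. Wax stripping removes the outer cornified layers without a drug. The protein made by Grhl3, a grainyhead-like factor, acts in skin barrier formation and in wound closure.

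No gene is named, because the IDs of the table did not pair with its values. The 205 probe sets labelled as ribosomal protein genes had a median signal percentile of 54.6, and the 1023 labelled as olfactory receptors, which skin should hardly express, one of 52.1. Printed IDs are labels of table rows only, and epidermal markers and the Grhl3 transcript could not be checked. Array medians lay between 169 and 199.9 intensity units, and replicate arrays correlated at 0.983 to 0.992 over probe sets. In 5 probe sets, none of them a member, the 8 arrays labelled female lay apart from the 8 arrays of wax-stripped and unaffected recovery skin labelled male, separated by between 3.67 and 6.74 log2 units. In all 5 the 4 injured recovery arrays, labelled male, lay nearer the arrays labelled female. Differences between the injured recovery arrays and unaffected recovery or wax-stripped skin thus cross this pattern although the labels give 1 sex. Those between injured recovery and imiquimod skin do not cross it although the labels give both sexes.

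The choice can be followed step by step. Of the distinct probe sets, 1093 were lower by at least 1 in injured than in unaffected imiquimod skin in both genotypes. In 838 of them the injured recovery area was also lower, by 0.3 or more in both genotypes, and in 95 the genotypes lay on different sides of that limit. The other 160 were not lower by 0.3 or more in injured recovery skin of either genotype, and 59 of these were dropped because they were not under the wax limit. Without the recovery condition, which removes any use of the injured recovery arrays, 1009 probe sets met the imiquimod and wax conditions, among them all 101 members. The WT arrays alone chose 258 probe sets and the cKO arrays alone 238. The 101 shared ones were 39.1% of the WT choice and 42.4% of the cKO choice.

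The members were moderately bright, with a median intensity of 379 and a median signal percentile of 66.8 (16.6 to 99.4). Their median difference between injured and unaffected imiquimod skin was -1.23 on the log2 scale (-2.66 to -1.03), against 0.01 over all distinct probe sets. The median difference between injured and unaffected recovery skin was 0.10, against -0.10 over all. Wax-stripped skin differed from unaffected recovery skin by a median of -0.04, against -0.10 over all. The choice set no upper limit on injured recovery skin and no lower limit on wax-stripped skin, and single members reached 0.90 and -2.15 in these differences. Whether recovery and wax-stripped skin stood at the high or at the low level of the imiquimod experiment was not itself a condition of the choice. The limits on the imiquimod and recovery differences still bear on this question.

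That question split the members. The return share places injured recovery skin between injured imiquimod skin (0%) and unaffected imiquimod skin (100%), on the log2 scale and as the mean of genotypes. It had a median of 74.7% and ran from -4.91% to 143%. It was at least 75% in 50 members and between 50% and 75% in 14. In the other 37 it was under 50%, and in 30 of those it was under 25%. In these 37 the word restored does not describe the levels. Injured recovery skin read closer to injured than to unaffected imiquimod skin in the mean of genotypes, and so did unaffected recovery skin in all of them but 10413171. Of the 838 probe sets that stayed low in injured recovery skin, the median return share was 29.9%. They were set apart from the members by the recovery difference, which uses the same injured recovery arrays. The medians are therefore not an independent comparison.

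**Figure D1:**
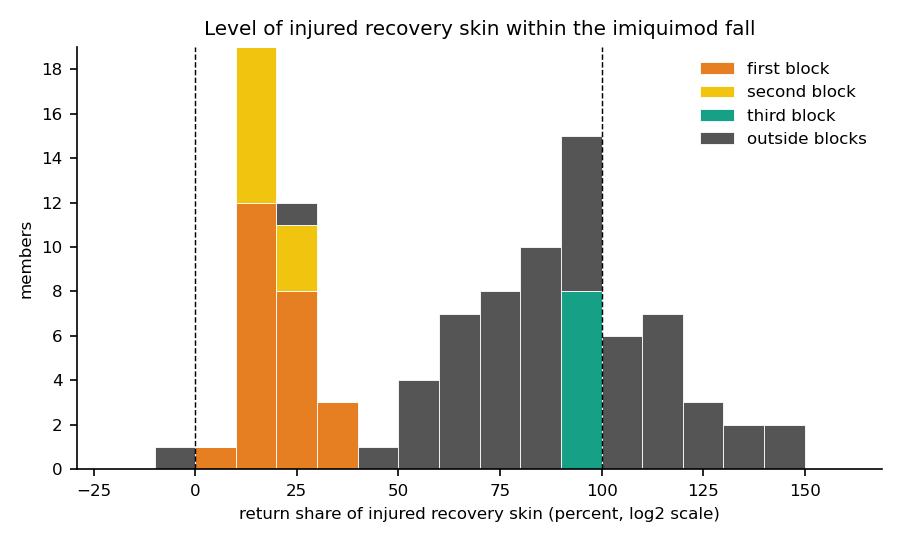
Histogram of the return share of the 101 members (horizontal axis, percent on the log2 scale; dashed lines at 0 and 100), with the number of members on the vertical axis, coloured by block of neighbouring table rows. All 34 members of the first and second blocks lie under 50%, and all 8 of the third block and 56 of the 59 other members lie over 50%.

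The low return shares came almost entirely from neighbouring rows of the table. With at least 5 members no more than 25 rows apart counted as a block, a definition made after the values were seen, there were 3 blocks that held 42 members. The first had 24 members within 47 rows, the second 10 within 25 rows and the third 8 in consecutive rows. The 59 others formed no block, but some were neighbours. Examples in consecutive rows were 10418169 with 10418171 and 10499438 with 10499454. Of the 37 members with a return share under 50%, 34 made up the whole of the first and second blocks.

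In the first block a single condition stood out, and it was the unaffected skin of the imiquimod experiment. The median over its 24 members was 309 and 261 in the cKO arrays and 303 and 310.3 in the WT arrays of injured imiquimod skin. In injured recovery skin it was 338 and 362 in cKO and 362 and 281 in WT arrays. Wax-stripped skin gave 274 and 285 in cKO and 344 and 343 in WT arrays, and unaffected recovery skin 268 and 259 in cKO and 283 and 354 in WT arrays. Unaffected imiquimod skin gave 690.3 and 519 in cKO and 851 and 644 in WT arrays. Its lowest array median was thus above the highest of the other 16.

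**Figure D2:**
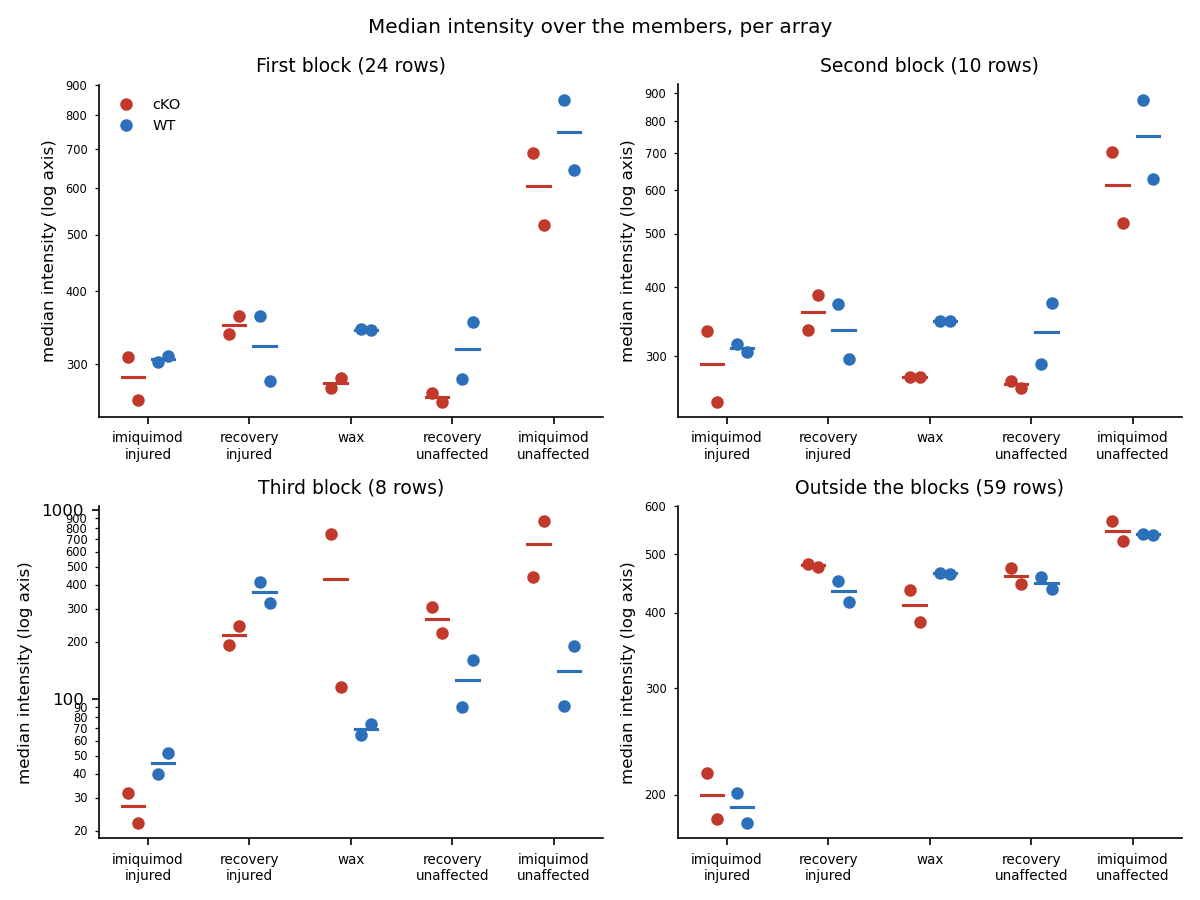
Median intensity of the members in each array (vertical log axis) for the 3 blocks and the other members, by condition, with cKO arrays in red and WT arrays in blue; points are arrays and bars the mean of the 2. In the first and second blocks unaffected imiquimod skin alone is high, and outside the blocks injured imiquimod skin alone is low.

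The second block repeated this profile in another stretch of the table. Its 10 members had medians of 333 and 248 in cKO and 315 and 306 in WT arrays of injured imiquimod skin. Injured recovery skin gave 334 and 387 in cKO and 373 and 297 in WT arrays. In unaffected imiquimod skin they were 703 and 523 in cKO arrays and 876 and 627 in WT arrays. The mean profiles of both blocks over the 20 arrays correlated at 0.999. Between single members of the 2 blocks, the deviations from group means had a median r of 0.86 over 240 pairs, so they also moved together between replicate arrays. These are descriptions over shared arrays.

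Both blocks were parts of longer runs. All 23 non-member rows within the first block were also lower in injured imiquimod skin, with differences of -1.15 to -0.71 in the mean of genotypes. The same held for all 15 non-members within the second block, 14 of them lower by over 0.5 in both genotypes. A run of 50 rows around the first block and 27 of 28 rows around the second correlated with their block's mean profile at over 0.9. The members of these blocks are therefore not separate observations of a change.

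Probe set 10599411, the member nearest the median fall of the first block, shows the levels. It read 453 and 388 in cKO arrays and 444 and 467 in WT arrays of injured imiquimod skin, against 1044 and 761 in cKO and 1299.8 and 949 in WT arrays of unaffected imiquimod skin. In injured recovery skin it read 577 and 630.3 in cKO and 636 and 501 in WT arrays, against 547 and 480.1 in cKO and 604 and 624 in WT arrays of unaffected recovery skin. Both recovery areas thus overlapped each other and lay under all 4 arrays of unaffected imiquimod skin. Probe set 10357875, its counterpart in the second block, read 390 and 296 in cKO and 383 and 377 in WT arrays of injured imiquimod skin, against 878 and 590 in cKO and 1123 and 738 in WT arrays of unaffected imiquimod skin. Its injured recovery arrays read 393 and 425 in cKO and 413 and 365 in WT skin, so its return share was 12.5%.

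Only 3 members outside the blocks had a return share under 50%. Probe set 10439138 had the lowest of all members (-4.91%). It read 595 and 562 in cKO and 430 and 554 in WT arrays of injured imiquimod skin, and 674 and 558 in cKO and 504 and 358 in WT arrays of injured recovery skin. Unaffected imiquimod skin read 1304 and 1438 in cKO and 1093 and 940.2 in WT arrays, above all other 16. In probe set 10491191 (20.3%) unaffected imiquimod skin was also above all others, at 491 and 366 in cKO and 435 and 417 in WT arrays, but injured recovery skin (198 to 227) did not overlap injured imiquimod skin (156 to 193). Probe set 10413171 (46.1%) had 469 and 452 in cKO and 443 and 353 in WT arrays of injured recovery skin.

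The third block differed from the first and second in both size and spread. Its 8 consecutive rows held the 6 members with the largest imiquimod differences in the mean of genotypes, probe sets 10505258, 10505270, 10505268, 10505266, 10505276 and 10505299. Deviations of its members from group means had a median r of 0.998, so they are not separate observations either. The size came from cKO mice, with a median imiquimod difference of -3.91, against -1.25 in WT mice, where 10399710 outside the block had -3.17. All 8 dropped out of the members when any 1 of 5 arrays was left out: replicate 2 of the wax-stripped cKO, unaffected imiquimod WT or injured recovery cKO arrays, or either unaffected recovery cKO array. Probe set 10505258 read 35.4 and 22.0 in cKO and 41.2 and 58.4 in WT arrays of injured imiquimod skin, against 492 and 982 in cKO and 99.4 and 209 in WT arrays of unaffected imiquimod skin. Injured recovery skin read 217 and 265 in cKO and 468 and 357 in WT arrays, against 349 and 249.8 in cKO and 101 and 179.5 in WT arrays of unaffected recovery skin. In wax-stripped skin the 2 cKO arrays read 829 and 125 and the WT arrays 68.8 and 78.1. All injured imiquimod arrays were below the other 16, but the other conditions scattered over a wide range, and replicate arrays could differ more than groups did. The injured recovery arrays of this probe set lay below unaffected imiquimod skin in cKO and above it in WT mice, so its return share of 98.5% joins 63.2% in cKO with 207% in WT mice. Over the 8 members the share ran from 61.2% to 63.2% in cKO and from 199.7% to 213% in WT mice. They count among the members with at least 75% only in the mean of genotypes.

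The 59 members outside the blocks carried the pattern that the description of the group implies. Their median was 217 and 183 in cKO arrays and 202 and 179 in WT arrays of injured imiquimod skin. Injured recovery skin gave 482 and 477 in cKO and 451 and 416 in WT arrays. Wax-stripped skin gave 437 and 387 in cKO and 465 and 464 in WT arrays, and unaffected recovery skin 475 and 447 in cKO and 458 and 439 in WT arrays. Unaffected imiquimod skin gave 567 and 526 in cKO and 541 and 538 in WT arrays. The 4 injured imiquimod arrays were the lowest without overlap, and the 4 of unaffected imiquimod skin were the highest. Their median return share was 88.1%, and 56 of the 59 lay over 50%.

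**Figure D3:**
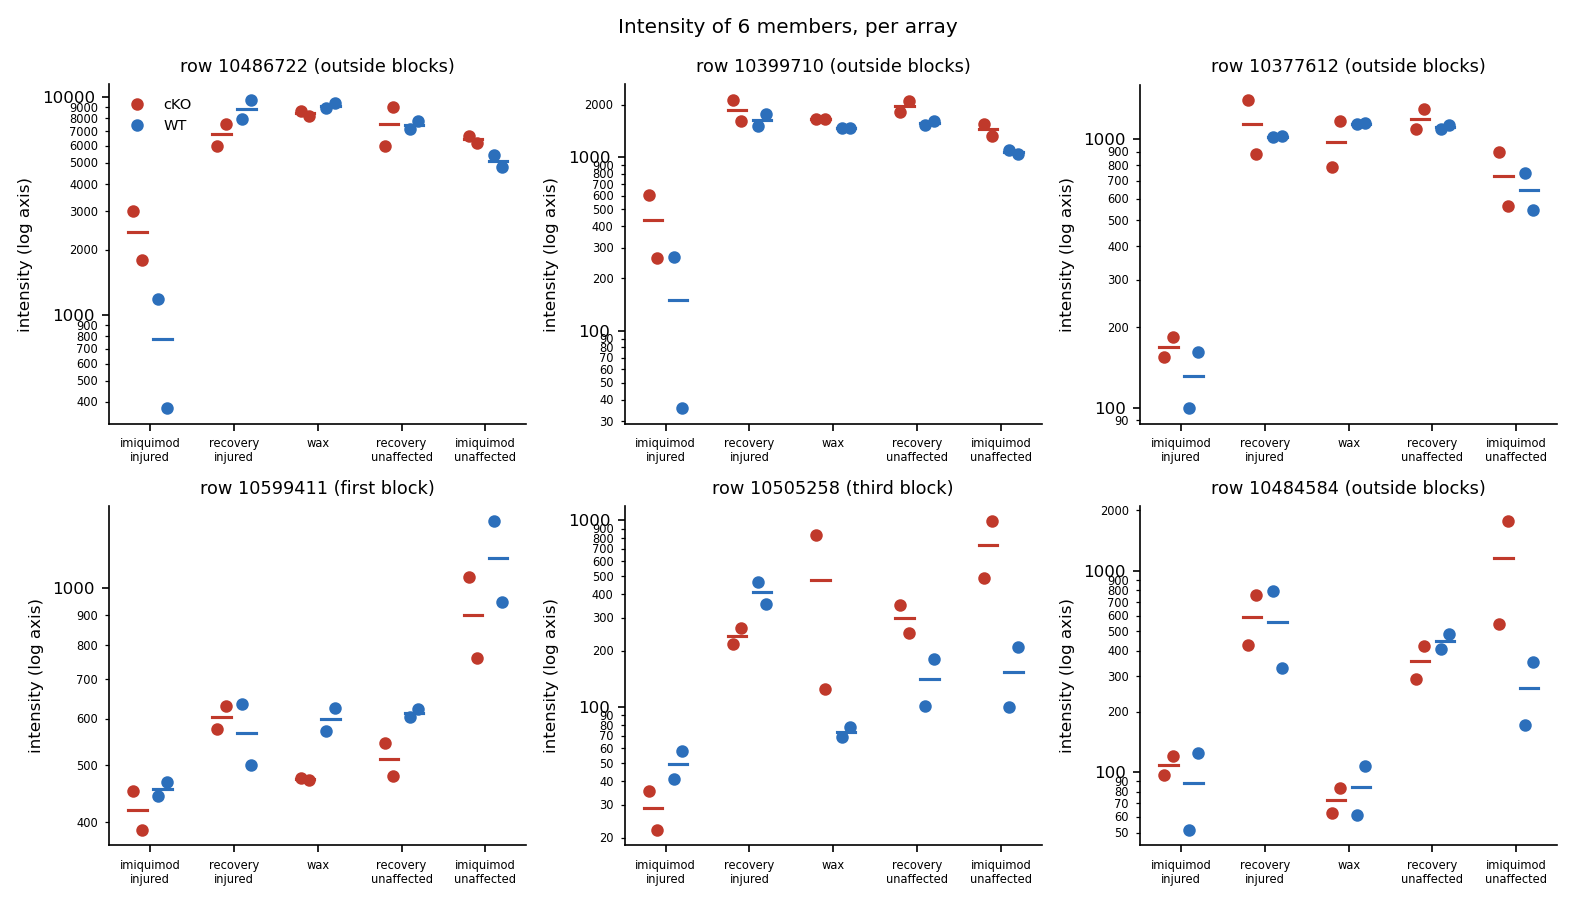
Intensity per array (vertical log axis) of 6 members by condition, cKO in red and WT in blue, with bars at the mean of the 2 arrays. Probe sets 10486722, 10399710 and 10377612 are low in the 4 injured imiquimod arrays alone, 10599411 is high in unaffected imiquimod skin alone, and 10505258 and 10484584 show other orders.

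In 43 members all 4 arrays of unaffected imiquimod skin were above the other 16, against 1.84% of all distinct probe sets, and 34 of these were the first and second blocks. In 59 members all 4 arrays of injured imiquimod skin were below the other 16, against 6.03% of all, and 50 of these lay outside the blocks and 8 in the third block. Both held in 7 members and neither in 6. In 52 members all 4 arrays of injured recovery skin were below all 4 of unaffected imiquimod skin, against 13.6% of all, and 18 of these lay outside the blocks. Since the choice used the imiquimod arrays, these counts describe the members and nothing is read from them.

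The 6 largest imiquimod differences outside the blocks belonged to 10399710, 10492826, 10499438, 10499904, 10484584 and 10486722. Probe set 10486722, one of the brightest members, read 3021 and 1792 in cKO arrays and 1187 and 374 in WT arrays of injured imiquimod skin. Unaffected imiquimod skin read 6672 and 6151 in cKO and 5447 and 4776 in WT arrays. Injured recovery skin read 5998 and 7537 in cKO and 7948 and 9732 in WT arrays. No injured imiquimod array overlapped the other 16, and both WT arrays were lower than both cKO arrays.

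Probe set 10492826 moved almost identically (r = 0.996 over the 20 arrays), with 2537 and 1515 in cKO and 1139 and 261 in WT arrays of injured imiquimod skin, against 6019 and 5151 in cKO and 5179 and 4463 in WT arrays of unaffected imiquimod skin. In probe set 10399710 the mean difference was -2.49. It read 602 and 262 in cKO and 266 and 35.7 in WT arrays of injured imiquimod skin, against 1561 and 1329 in cKO and 1106 and 1039.9 in WT arrays of unaffected imiquimod skin. Probe set 10499438 read 157 and 96.8 in cKO and 80.5 and 46.9 in WT arrays of injured imiquimod skin, against 567 and 398 in cKO and 597 and 445 in WT arrays of unaffected imiquimod skin. In these 4 members the second WT array of injured imiquimod skin was the lowest of all 20. That array was the lowest in 34 of the 59 members outside the blocks, and the second cKO array of that skin in 10. In the third block the second cKO array was the lowest in all 8 members and in the first block in 17 of 24.

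Probe set 10499904 was dim and kept a wide gap, with 20.9 and 22.4 in cKO arrays and at most 29.1 in WT arrays of injured imiquimod skin, against 229.8 and 199 in cKO and 155 and 127 in WT arrays of unaffected imiquimod skin. Its injured recovery arrays read 92.0 and 86.2 in cKO and 126 and 155 in WT skin, below unaffected imiquimod skin in cKO mice and overlapping it in WT mice.

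In probe set 10377612 recovery skin read mostly above unaffected imiquimod skin. It read 155 and 184 in cKO and 99.7 and 162 in WT arrays of injured imiquimod skin. Unaffected imiquimod skin read 898 and 565 in cKO and 751 and 546 in WT arrays. Injured recovery skin read 1401 and 885 in cKO and 1017 and 1026 in WT arrays, and unaffected recovery skin 1091 and 1291 in cKO and 1094 and 1132 in WT arrays. It had the highest recovery levels relative to unaffected imiquimod skin among the members, and its return share was 131%. The brightest member, 10492640, read 3152 and 2134 in cKO and 5073 and 2048 in WT arrays of injured imiquimod skin, against 8094 and 7348 in cKO and 8061 and 7314 in WT arrays of unaffected imiquimod skin.

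A few members had an order of their own. Probe set 10484584 had the lowest wax level relative to unaffected recovery skin. It read 62.8 and 82.9 in cKO and 61.0 and 107 in WT arrays of wax-stripped skin, against 290.2 and 421 in cKO and 411 and 483 in WT arrays of unaffected recovery skin. In injured imiquimod skin it read 96.9 and 120.3 in cKO and 51.6 and 124 in WT arrays, so it read low after both injuries sampled on day 4. Injured recovery skin read 428 and 755 in cKO and 792 and 328 in WT arrays, within the range of unaffected recovery and unaffected imiquimod skin.

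Probe set 10484634 had the highest level of injured recovery skin relative to the unaffected area. It read 249 and 153 in cKO and 185 and 100.3 in WT arrays of injured recovery skin, against 80.7 and 102 in cKO and 73.2 and 68.2 in WT arrays of unaffected recovery skin. Its wax-stripped arrays read 67.1 to 71.9. Unaffected imiquimod skin read 278 and 268 in cKO and 181 and 92.0 in WT arrays, so its lowest array overlapped unaffected recovery skin. At the other end, 10589889 had injured recovery levels of 149.9 and 167 in cKO and 179 and 154 in WT arrays, against 206 and 192 in cKO and 186 and 219 in WT arrays of unaffected recovery skin. The dimmest member, 10342461, averaged 62.3 units over the arrays and was the 1 member left out of all tests by the filter on low signal.

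Among the 59 members outside the blocks, the median correlation of levels between 2 members was 0.79, but that of deviations from group means was 0.14. Shared differences between conditions follow in part from the choice, which set the same limits for all members. Array-to-array differences within groups were mostly not shared, unlike among the members of the blocks. Closely matched pairs beside 10486722 and 10492826 were 10495306 with 10495316 (r = 0.991) and 10473580 with 10473588 (r = 0.985). These 2 pairs lay in neighbouring table rows (22619 and 22620, 20332 and 20336), so the members of each may not be separate observations.

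The choice can be tested on arrays it did not use by taking the probe sets that 1 genotype chose and reading them in the other. Of the 258 chosen in WT arrays, 254 were lower in injured than in unaffected imiquimod skin of cKO mice, and of the 238 chosen in cKO arrays, 234 were lower in WT mice. In the test over 26310 probe sets (limma, Benjamini-Hochberg adjusted p under 0.05), 215 of the 239 tested WT-chosen probe sets were called lower in cKO mice, with a median of -1.06. Over all tested probe sets 18.5% were called lower in that comparison. Of the 216 tested cKO-chosen probe sets, 183 were called lower in WT mice, with a median of -1.19, against 20% over all. The fall at imiquimod day 4 thus carried over between genotypes for most probe sets.

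The recovery condition was read in the same way. Of the WT-chosen probe sets, 188 of 258 met it in cKO mice, slightly above the share of all distinct probe sets (69.1%). Of the cKO-chosen ones, 176 of 238 met it in WT mice, below the share of all (79.2%). All distinct probe sets are an unlike yardstick here, because the chosen ones were low in imiquimod-injured skin. Among the 1093 probe sets lower in imiquimod skin in both genotypes, 160 met the recovery condition in both. In 838 it failed in both genotypes, and in 95 the genotypes lay on different sides of the limit. Meeting it was thus rarer among probe sets lowered by imiquimod, and there the genotypes mostly fell on the same side. How far the condition carried over was not tested. All 3 conditions were met by 101 in each direction.

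The level of recovery skin against unaffected imiquimod skin could be tested in the same crossed way. This comparison also crosses experiment and labelled sex, and possibly day, for which the unaffected areas have no label. These cannot be told apart from one another here. Unaffected recovery skin was lower than unaffected imiquimod skin in 76 of the 239 WT-chosen probe sets when read in cKO mice and higher in 7, and 9.76% of all tested probe sets were called lower and 11% higher. It was lower in 53 of the 216 cKO-chosen probe sets when read in WT mice and higher in 1, and 4.25% of all were called lower and 3.14% higher. The calls were then split by the 3 runs of neighbouring rows, as a description only. The runs were found from members chosen in both genotypes and from profiles over all 20 arrays, so the split used the arrays tested. In the runs 56 of 65 WT-chosen probe sets were lower in cKO mice, and outside them 20 of 174 (11.5%). The cKO-chosen ones gave 40 of 48 in the runs and 13 of 168 (7.74%) outside them in WT mice. A fit with only the 4 arrays of the comparison called 3 in cKO and 0 in WT mice. Leaving out replicate 1 of the unaffected recovery WT arrays gave 19 calls in WT mice, against 54 with it.

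Injured recovery skin was lower than unaffected imiquimod skin in 101 of the 239 WT-chosen probe sets read in cKO mice and higher in 6, against 13.9% lower and 17.9% higher over all tested. It was lower in 96 of the 216 cKO-chosen ones read in WT mice and higher in 10, against 13.5% lower and 14.8% higher over all. In the runs 52 of 65 were lower in cKO and 40 of 48 in WT mice. Outside them 49 of 174 (28.2%) were lower in cKO and 56 of 168 (33.3%) in WT mice, with median differences of -0.23 and -0.28. Leaving out replicate 1 of the injured recovery cKO arrays gave 47 calls in cKO mice in either direction, against 107 with it, and leaving out replicate 1 of the unaffected imiquimod cKO arrays gave 71.

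**Figure D4:**
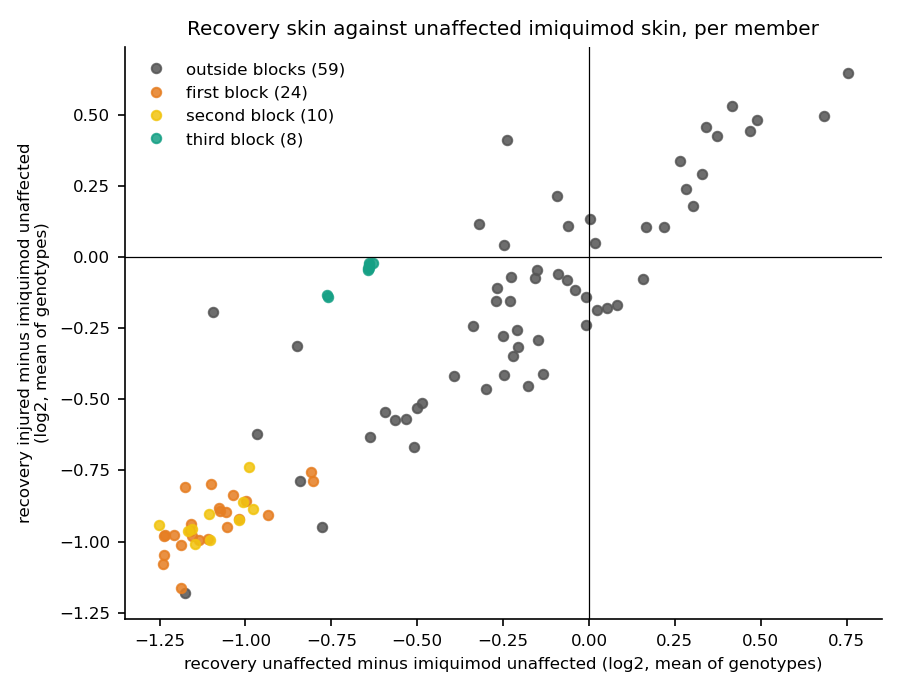
Each point is a member, placed by the log2 difference between unaffected recovery and unaffected imiquimod skin (horizontal) and between injured recovery and unaffected imiquimod skin (vertical), as means of genotypes. The first and second blocks lie between -1.25 and -0.80 horizontally and between -1.16 and -0.74 vertically, and the other members spread along the diagonal up to 0.75 and 0.65.

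For the members themselves these comparisons share arrays with the choice and are given as descriptions. Unaffected recovery skin was called lower than unaffected imiquimod skin in 46 of the 100 tested members in cKO mice (9.76% over all) and in 37 in WT mice (4.25%). The first and second blocks made up 34 of the calls in each genotype. The 8 members of the third block were not called in either genotype, with median differences of -1.19 in cKO and -0.10 in WT mice. Injured recovery skin was called lower than unaffected imiquimod skin in 45 members in cKO (13.9%) and 44 in WT mice (13.5%), and 40 were lower in both. Of the members outside the blocks 8 were lower in both genotypes. Wax-stripped skin was called lower than unaffected imiquimod skin in 53 members in cKO (11.6%) and in 42 in WT mice (9.75%), with 41 in both. When nothing but the 4 arrays compared entered the fit, unaffected recovery skin was called in 2 members in cKO and 0 in WT mice.

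The genotypes were compared within each condition. The choice set no limit on this difference, but it used these arrays and required the same 3 limits in both genotypes. The calls therefore describe the members. No member was called different between cKO and WT mice in wax-stripped skin (0.27% of all tested probe sets were called), in injured imiquimod skin (0.137%), in unaffected imiquimod skin (0.0076%), in injured recovery skin (1%) or in unaffected recovery skin (0%), by limma with adjusted p under 0.05. At an unadjusted limma p under 0.05 there were 13, 14, 16, 10 and 3 members in this order. The shares of all tested probe sets were 6.89%, 11.6%, 9.71%, 13.4% and 3.04%. Of the 13 in wax-stripped and the 16 in unaffected imiquimod skin, 8 each were the third block, whose members are not separate observations. With the 4 injured recovery arrays left out of the fit, the count was 0 in each of the other 4 conditions as well. The median difference between cKO and WT over the members lay between -0.16 in wax-stripped skin and 0.03 in injured recovery skin.

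**Figure D5:**
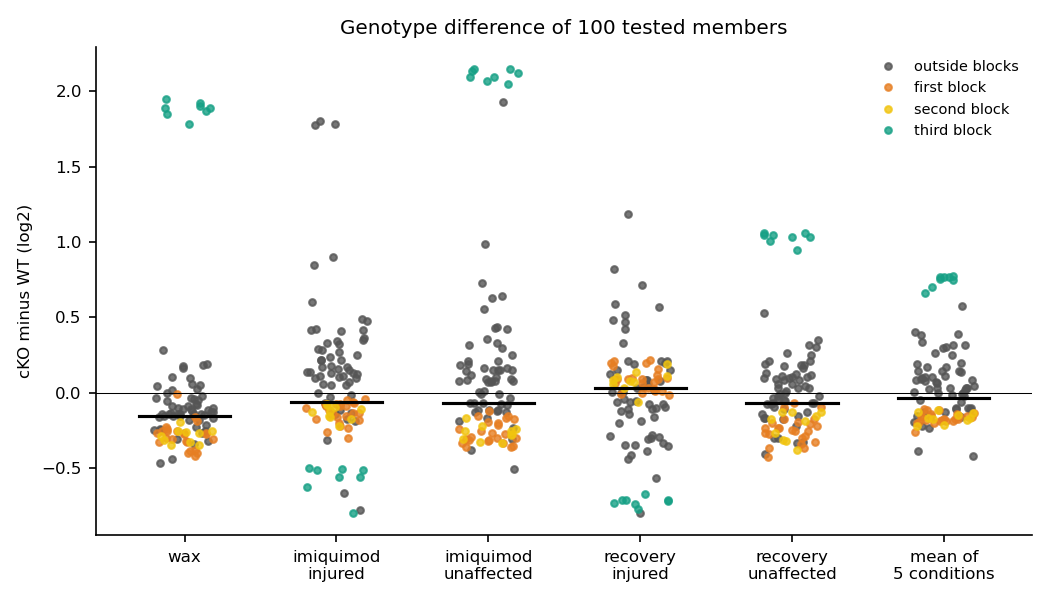
Difference between cKO and WT (vertical axis, log2) of the 100 tested members in each condition and in the mean of 5 conditions, coloured by block, with a bar at the median. The third block lies between 1.78 and 2.15 in wax-stripped and unaffected imiquimod skin, and no member was called in any single condition.

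In wax-stripped, unaffected imiquimod and unaffected recovery skin the third block lay above all other tested members in the difference between genotypes. In injured imiquimod skin members outside the blocks reached further from 0. Its median cKO minus WT difference was 1.89 in wax-stripped skin, 2.11 in unaffected imiquimod skin and 1.04 in unaffected recovery skin, and -0.54 and -0.72 in injured imiquimod and injured recovery skin. None passed the test, with adjusted p of at least 0.305 in unaffected imiquimod skin and at least 0.378 in wax-stripped skin. The spread between the 2 cKO wax arrays alone (829 and 125 in 10505258) was of the size of these differences. Without the second of these arrays 8 members were called in wax-stripped skin.

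Averaged over the 5 conditions, 2 of 100 tested members were called between genotypes, a share near that of all tested probe sets (1.49%). Probe set 10417778 was lower in cKO mice, by -0.39 ± 0.07 (SE, limma adjusted p = 0.00989), and stayed called in all 8 alternatives of the fit and with each of the 20 arrays left out. Of these alternatives, the fit with only the arrays of the comparison uses all 20 arrays here and repeats the main fit. Probe set 10417778 read 595 and 462 in cKO against 933 and 754 in WT arrays of injured imiquimod skin. In wax-stripped skin it read 1323 and 1312 in cKO against 1796 and 1853 in WT arrays. In unaffected recovery skin the genotypes overlapped, at 2147 and 1808 in cKO and 1994 and 2453 in WT arrays. Probe set 10413171 was higher in cKO mice, by 0.25 ± 0.06 (SE, limma adjusted p = 0.0442). This call was lost after quantile normalization (adjusted p = 0.0768 by limma), with no filter (0.0650 by limma), with the replicate number as a block (0.0514 by limma) and was kept with only 5 of the 20 single arrays left out. It read 826 and 892 in cKO against 523 and 577 in WT arrays of unaffected imiquimod skin, and 306 and 351 in cKO against 232 and 253 in WT arrays of injured imiquimod skin, while in wax-stripped skin the order was not kept (502 and 501 in cKO, 569 and 497 in WT arrays). The count moved between 1 and 9 when single arrays were left out, with 9 without replicate 2 of the wax-stripped cKO arrays and 5 without either WT array of injured imiquimod skin.

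The closest single-condition differences were 10501164 in injured imiquimod skin (cKO minus WT 0.48 ± 0.10, SE, limma adjusted p = 0.0863) and 10499454 in injured recovery skin (0.82 ± 0.19, SE, limma adjusted p = 0.0608). The first read 277 and 314 in cKO arrays and 224 and 192 in WT arrays of injured imiquimod skin, and the second 379 and 349 in cKO arrays and 192 and 208 in WT arrays of injured recovery skin. In both the genotypes did not overlap there.

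The imiquimod, recovery and wax responses were also compared between genotypes, as the difference of differences. The choice limited each response in both genotypes, so these counts describe the members and nothing is read from them. No member was called in the imiquimod response (0.0038% of all tested), the recovery response (0.137%) or the wax response (0.0494%), with 12, 4 and 2 members at an unadjusted p under 0.05, against 4.19%, 8.84% and 2.48% of all tested. Probe sets 10486722 (-1.45 in cKO, -2.90 in WT mice) and 10492826 (-1.50 in cKO, -3.09 in WT mice) were among those not called. Of the 12 members at an unadjusted p under 0.05 in the imiquimod response, 8 were the third block. Without replicate 1 of the injured imiquimod WT arrays 2 members were called.

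Just inside the imiquimod limit, probe set 10357858 had -1.001 in cKO and -1.17 in WT mice, and just outside it 10358023 had -0.9999 in cKO and -1.16 in WT mice. At the recovery limit 10413983 was inside (-0.30 in cKO, -0.25 in WT mice) and 10458841 outside (-0.14 in cKO, -0.30 in WT mice). At the wax limit 10599686 was inside (0.12 in cKO, 0.30 in WT mice) and 10357870 outside (-0.03 in cKO, 0.30 in WT mice). Of the members just inside, 10357858 belonged to the second block and 10599686 to the first.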

How the data were processed

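The epidermis of each sample was labelled and hybridised to 1 Affymetrix Gene ST array, as the labels' protocols state. The deposited table holds linear probe-set intensity values that the authors derived through PLIER in Affymetrix Expression Console, per the submitters' processing notes, which name no versions. Of 35556 rows, 476 with values identical to an earlier row were removed. Values were used as log2(intensity + 16), which understates changes of dim probe sets. Arrays give no read depth, and their number limits the precision.

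Levels were fitted with 1 mean per group on all 20 arrays together, using limma 3.58.1 under R 4.3.3 (lmFit and eBayes with default settings). The fit covered the 26310 probe sets at or over the 25th percentile of mean log2 signal, and p-values were Benjamini-Hochberg adjusted over all of them in each comparison. The procedure was tested on simulated data in which probe sets varied independently of one another. That setting does not cover probe sets that move together, as those of the blocks did. Members, lists and tests were chosen with earlier results of these data known. Probe sets are named for the 6 largest imiquimod differences, both ends of each difference and of signal, both sides of each limit, and genotype calls. Block examples, members outside the blocks with large differences or low return shares, and the closest uncalled or best matched ones were chosen after their values were seen. The probe table's names and the marker lists were not used, because the names did not pair with the values. Same-numbered replicates showed no consistent common deviation (median r 0.02, from -0.26 to 0.29 over 45 pairs of groups), so the numbers were not used as a block. The highest r was that between the cKO and WT arrays of unaffected imiquimod skin. Over the 4 pairs of injured and unaffected areas of 1 experiment and genotype, r ran from -0.18 to 0.06. The sample titles do not say whether these areas came from the same mice. Alternatives covered the pseudocount, normalization, filter, eBayes settings, arrays in the fit, the limits and each array left out.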

Additional observations from a re-analysis of the deposited data

Results flagged for a closer look

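In 4 members the recovery difference pointed in opposite directions in the genotypes, with no overlap between the 2 injured and the 2 unaffected arrays of either genotype. Injured minus unaffected recovery skin was -0.19 in cKO and 0.25 in WT mice for probe set 10388174, and -0.26 in cKO and 0.18 in WT mice for 10492640. It was -0.28 in cKO and 0.23 in WT mice for 10492826, and -0.25 in cKO and 0.31 in WT mice for 10495316. By the difference of differences (limma), none was called, with adjusted p from 0.495 in 10495316 to 0.802 in 10492826. The recovery difference was part of the choice of members. The same opposite pattern was present in 936 of the distinct probe sets (2.67%), against 3.96% of the members.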

How the results depend on the processing

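The number of members depended on the limits and scale. It was 56 with a pseudocount of 64 (50 shared with the 101), 67 after quantile normalization (63 shared), 192 with an imiquimod limit of -0.8, 38 with -1.2, and 1009 by the imiquimod and wax limits alone. Single arrays left out gave 62 to 138, with 62 without replicate 1 of the unaffected imiquimod cKO arrays, where 6 of 24 members of the first block and 1 of 10 of the second remained. All 8 members of the third block were lost with a pseudocount of 64 and with a recovery limit of -0.2. Members called between genotypes in injured recovery skin were 2 with a pseudocount of 64, 1 with eBayes trend and robust settings, and 0 to 1 with single arrays left out. The 2 called in the mean over conditions became 1 after quantile normalization, with no filter and with the replicate number as a block, and 1 to 9 with single arrays left out; the block moved no other count by over 1.5 times. Left-out arrays gave 0 to 8 members called between genotypes in wax-stripped skin, 0 to 6 in injured imiquimod skin (6 without replicate 1 of the WT arrays) and 0 to 2 in the imiquimod response.

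For unaffected recovery against unaffected imiquimod skin, only the arrays of the comparison, which leaves few residual degrees of freedom, gave 2 instead of 46 members in cKO and 0 instead of 37 in WT mice, and 3 instead of 83 and 0 instead of 54 probe sets chosen in the other genotype. Left-out arrays gave 38 to 52 and 15 to 39 members (15 without replicate 1 of the unaffected recovery WT arrays), and 63 to 91 and 19 to 61 crossed probe sets. For injured recovery against unaffected imiquimod skin, only the arrays of the comparison gave 68 instead of 107 WT-chosen probe sets in cKO mice. Left-out arrays gave 47 to 116 of these and 74 to 114 in WT mice, and 21 to 53 members in cKO (21 without replicate 1 of the injured recovery cKO arrays, 29 without replicate 1 of the unaffected imiquimod cKO arrays) and 35 to 51 in WT mice. Wax-stripped skin gave 41 to 55 members in cKO and 35 to 49 in WT mice. The imiquimod fall in the other genotype gave 187 to 218 and 167 to 191 calls. Leaving out all 4 injured recovery arrays, added after seeing the data, gave 43 and 37 members for unaffected recovery skin. The cause of these shifts was not tested. Dim members near the background of the arrays have differences that the pseudocount compresses.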

Other observations

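The table holds 225 groups of rows with identical values (701 rows). A set of 13 IDs that the probe table gives 1 list of accessions, beginning at row 19830, has the same irregular spacing as 13 rows with identical values that begin at row 19151, 679 rows apart. A set of 9 IDs is matched at the same distance of 679 rows. No name was taken from this match.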
